A study of Mus musculus with 9 samples.

Results

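Reads of the arginine tRNA with anticodon ACG (Arg-ACG) were followed in small RNA libraries from mouse blood serum, in a study that gave mice salvianolic acid B (SalB), a plant phenolic, in a model of atherosclerosis. A read was counted as Arg-ACG when each of its alignments lay on a mature or precursor reference of this family. Of 41240 distinct tRNA sequences, 1064 met this rule, 587 on mature and 477 on precursor references. They held 32536 of 555585 reads, 4719 mature and 27817 precursor. A further 6 sequences with 7 reads aligned to Arg-ACG and to another family as well, and were not counted. The family was selected with its level under SalB already known, so every value that sets SalB against another group is given below as a description, with no test. Only high fat diet was tested against normal diet.

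The study compared 3 groups of 3 libraries, all labelled as week 20. Serum came from mice on a high fat diet with SalB, from mice on a high fat diet alone, which the study's design text calls the model of atherosclerosis, and from mice on a normal diet, its control. Normal diet titles name the strain C57, and the other titles name none. For those groups the sources used here give no strain and no allele, and they state neither the SalB dose nor the number of mice, so diet and strain cannot be told apart in a comparison with normal diet. Whether replicates came from separate animals is not stated, and the p-values therefore cover only the spread among these libraries, possibly a technical one. The files hold tRNA reads only, so the labelled tissue could not be checked against marker genes. In serum, release of a fragment from more cells and more release per cell cannot be told apart.

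Arg-ACG reads arginine codons. Its first anticodon base, A34, is deaminated to inosine by the ADAT2-ADAT3 enzyme, and inosine is copied as G in sequencing. tRNA genes are transcribed by RNA polymerase III, which stops in a run of T, and the precursor carries a 5′ leader and a 3′ trailer. RNase P removes the leader, RNase Z (ELAC2) cuts the trailer off directly behind the last encoded base, and a CCA tail is then added to the mature 3′ end. A58 in the T loop of many tRNAs is methylated by TRMT6 and TRMT61A. Fragments of mature tRNAs and released trailers are known members of the small RNA pool of cells and body fluids.

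The 3 mature Arg-ACG references, rebuilt from the aligned reads without conflict, are shown because they decide which reads can be told apart. Capitals mark the anticodon and the positions at which the references differ, counted from 1 at the 5′ end.
Arg-ACG-1-1: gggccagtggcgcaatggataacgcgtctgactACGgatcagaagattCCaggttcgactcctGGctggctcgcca
Arg-ACG-2-1: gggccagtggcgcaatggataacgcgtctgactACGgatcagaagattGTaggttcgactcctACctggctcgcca
Arg-ACG-3-1: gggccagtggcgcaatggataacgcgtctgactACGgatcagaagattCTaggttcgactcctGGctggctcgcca
Relative to Arg-ACG-1-1, Arg-ACG-2-1 carries C49G, C50T, G64A and G65C, and Arg-ACG-3-1 carries C50T alone. RefSeq (GRCm38.p6) lists 6 genes for this tRNA, named n-TRacg1 to n-TRacg6. They lie at chr13:22021144-22021216, chr9:123529425-123529497, chr3:19627959-19628031, chr13:23500522-23500594, chr13:23446792-23446864 and chr14:54517696-54517768, each 73 bases long. Which of them is precursor copy 1-3 was not determined here.

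The trailers are shown because 1 of them carried nearly all precursor reads. They are given as reference bases, as far as reads covered them. They begin at the first base behind the mature part, position 114 of the precursor references. Those references start 40 bases ahead of the mature part. Capitals mark runs of 4 or more T.
Arg-ACG-1-3: ttgggactggtactcctttatttgc
Arg-ACG-3-1: acgtgtgcgatcTTTTTc
Arg-ACG-3-2: accatgtctcTTTT
Arg-ACG-1-1: gaatgtacaggtcTTTTTgttt
In the 25 reference bases covered of the copy 1-3 trailer the longest run of T was 3. It was 5 in copy 3-1, 4 in copy 3-2 and 5 in copy 1-1. However, of 187 copy 1-3 reads that spanned bases 114 to 137, 161 ended in T in place of the reference G (G137T). Those reads held a run of 4 T, and the source of their last T was not tested. The boundary of mature part and trailer in copy 1-3 reads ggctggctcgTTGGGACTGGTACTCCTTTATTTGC, with the trailer in capitals. None of 2743 RefSeq mouse miRNA sequences (0 found) held the first 14 bases of this trailer.

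Depth and scaling set how firmly these reads can be compared. Libraries held 40134 to 156333 tRNA reads with SalB, 28191 to 55465 on high fat diet and 31058 to 94724 on normal diet. The depth of the whole libraries is not known, because reads off the tRNA references are not in the files. SalB replicate 2 stood apart: 41.8% of its reads came from the precursor of another tRNA, Leu-CAG-3-1, against 2.54% and 0.0573% in SalB replicates 1 and 3 and at most 0.106% in any other library. Its scaling factor, by trimmed means of M values, was 0.378, against 0.885 to 1.24 in the other 8 libraries. Levels below are scaled CPM, in which reads are divided by the tRNA reads of their library times its scaling factor. Totals in scaled CPM therefore differ between libraries, and a low factor raises every level in a library. A level in scaled CPM is thus not a share of the tRNA reads. Results with SalB are given with and without SalB replicate 2 where they rest on it.

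The trailer dominated Arg-ACG in serum and was higher in every SalB library than in any other. Trailer reads numbered 7430, 7037 and 3233 with SalB, 1576, 886 and 1397 on high fat diet, and 1303, 822 and 4053 on normal diet. In scaled CPM these were 134890, 119212 and 82784 with SalB. They were 22996, 25667 and 25411 on high fat diet. They were 24484, 23146 and 36857 on normal diet. The lowest SalB library lay above the highest library of both other groups, and the high fat and normal diet libraries overlapped. Group means were 112295 ± 26733 with SalB, 24691 ± 1474 on high fat diet and 28163 ± 7559 on normal diet (SD, n = 3 each). Without SalB replicate 2 the SalB mean was 108837.

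The fitted log2 difference in trailer level was 2.16 (SE 0.25) for SalB against high fat diet and 1.95 (SE 0.24) for SalB against normal diet. Sums of 1 origin within 1 tRNA family that were higher with no overlap made up 34.9% of the 169 tested for SalB against high fat diet and 32.5% for SalB against normal diet, and the median log2 differences over all sums were 0.55 and 0.49. Both comparisons share the SalB libraries. With total counts in place of the scaling, which lowers the median fragment by 0.93 and 0.92 in these comparisons, the trailer differences were 1.31 and 1.22. High fat diet against normal diet gave a log2 difference of -0.22 (SE 0.27) with a limma-voom adjusted p of 0.876, so no trailer difference was detected between the diets.

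**Figure D1:**
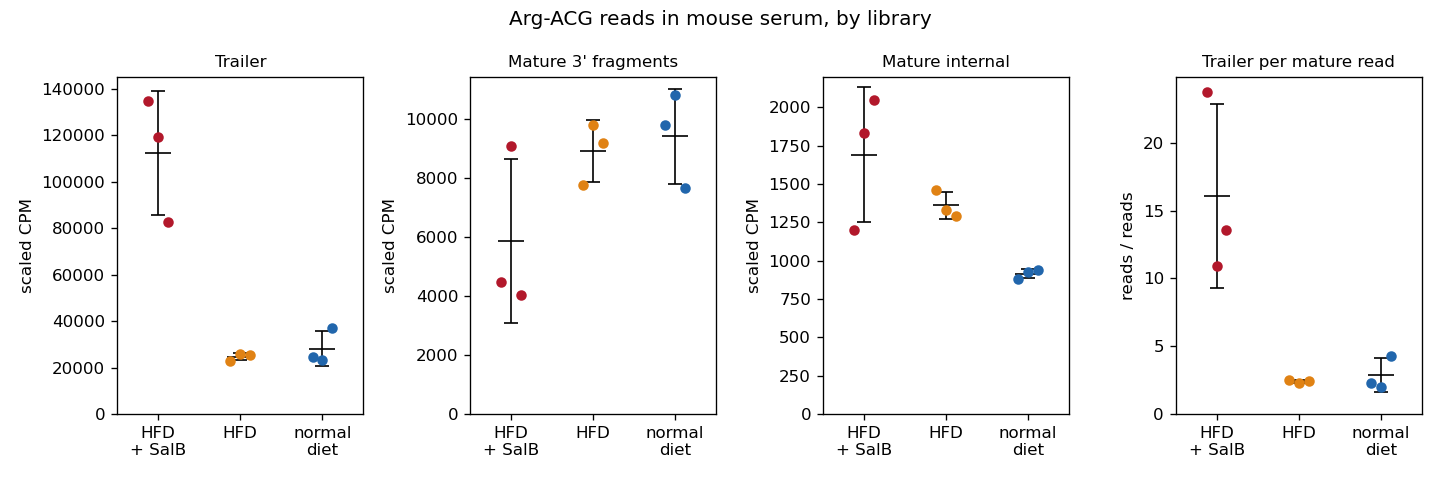
Level of the Arg-ACG trailer, of mature 3′ fragments and of mature internal fragments in scaled CPM, and trailer reads per mature read, for high fat diet with SalB, high fat diet (HFD) and normal diet. Points are libraries, the long bar is the mean and the error bar the SD (n = 3 each); trailer levels with SalB, at 82784 to 134890, lie above all others, while mature 3′ levels overlap.

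As a share of all tRNA reads, which needs no scaling factor, the trailer made up 11.9%, 4.50% and 8.06% with SalB. It made up 2.84%, 3.14% and 3.15% on high fat diet and 3.03%, 2.65% and 4.28% on normal diet. SalB replicate 2 was the lowest of its group by this measure, and still above every library of the other groups. Its many Leu-CAG-3-1 precursor reads lower every other share in it. Normal diet replicate 3 was the highest of the other 6.

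Within the family, the balance of precursor and mature reads differed in the same way. There were 23.7, 10.9 and 13.6 trailer reads per mature read with SalB. There were 2.49, 2.31 and 2.43 on high fat diet and 2.29, 1.97 and 4.28 on normal diet. The ratio does not depend on library size or on any other tRNA, and the SalB libraries did not overlap the rest. Trailers formed 93.4% ± 2.24 of Arg-ACG reads with SalB, 70.4% ± 0.826 on high fat diet and 72.1% ± 7.80 on normal diet (SD, n = 3 each). High fat diet and normal diet differed by -1.76 percentage points in this share (two-sided exact permutation p = 1; 3 against 3 libraries cannot give a p under 0.1). Without normal diet replicate 3 the difference was 2.64 points, of opposite sign.

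Almost all precursor reads came from 1 gene copy and began at 1 base. Copy 1-3 held 27735 of 27817 precursor reads, 17693 with SalB, 3864 on high fat diet and 6178 on normal diet. Its mean share of precursor reads was 99.8% with SalB, 99.6% on high fat diet and 99.5% on normal diet, and the groups overlapped. Of its reads, 27668 began at base 114, an offset of 113 in the alignments, which is the first base behind the mature part. A further 48 began 1 base later and 5 began 1 base earlier. The share of copy 1-3 trailer reads that began at base 114 was 99.7% to 99.9% in each of the 9 libraries. The 5′ end of the trailer thus lay at the same base in all groups.

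The other copies were close to absent. Copy 3-1 had 35 reads, 19 with SalB, 6 on high fat diet and 10 on normal diet, of which 16 started at offset 113 and the commonest length was 16 bases. Copy 3-2 had 16 reads, most often at offset 97 and 22 bases long. Copies 1-1 and 1-2 had 9 reads each, with commonest offsets of 95 and 98 and lengths of 14 and 15 bases. Copy 2-1 had 5 reads, all at offset 95, and 8 reads were shared between copies. Since the mature sequences of most copies cannot be separated, mature reads give no matching count per gene copy.

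Copy 1-3 trailers ended at several bases, and the mix of ends differed between groups. The commonest length was 22 bases, with 10408 reads, and lengths ran mostly between 14 and 24 bases. The leading fragments are shown with the same 5′ end and staggered 3′ ends.
bases 114 to 136: ttgggactggtactcctttattt
bases 114 to 135: ttgggactggtactcctttatt
bases 114 to 134: ttgggactggtactcctttat
bases 114 to 133: ttgggactggtactccttta
bases 114 to 127: ttgggactggtact

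The 22-base fragment had 2330, 1866 and 1029 reads with SalB, 421, 276 and 394 on high fat diet and 400, 221 and 1111 on normal diet. After scaling, all SalB libraries lay above all others, with mean levels of 33420 with SalB, 7102 on high fat diet and 7947 on normal diet, in scaled CPM. Its log2 difference was 2.22 (SE 0.28) for SalB against high fat diet. For high fat diet against normal diet it was -0.18 (SE 0.29, limma-voom adjusted p = 0.826).

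The 23-base fragment, 1 base longer, had 788, 732 and 445 reads with SalB. It had 76, 48 and 87 on high fat diet and 64, 38 and 205 on normal diet. Its log2 difference of 3.23 for SalB against high fat diet was larger than that of the 22-base form. The 21-base fragment had 782, 820 and 325 reads with SalB, 108, 70 and 88 on high fat diet and 88, 76 and 331 on normal diet, a log2 difference of 2.79. The 20-base fragment had 991, 931 and 247 reads with SalB, 229, 103 and 168 on high fat diet and 116, 81 and 334 on normal diet, a log2 difference of 1.98. In scaled CPM all 3 of these forms were higher in each SalB library than in any other.

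The 14-base fragment behaved apart. No read of copy 1-3 was shorter, so trailers under 14 bases, if any, are missing from the shares and mean lengths below. The 14-base fragment had 175, 202 and 141 reads with SalB, 135, 41 and 87 on high fat diet and 110, 79 and 680 on normal diet. Its mean levels were 3403, 1580 and 3492 scaled CPM in these groups, and SalB overlapped normal diet. That overlap rests on normal diet replicate 3: without it the normal diet mean was 2146, and both other normal diet libraries, at 2067 and 2225, lay below the lowest SalB library, at 3177. The high fat diet libraries lay below the normal diet libraries without overlap, with a log2 difference of -1.03, and the limma-voom adjusted p was 0.381.

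**Figure D2:**
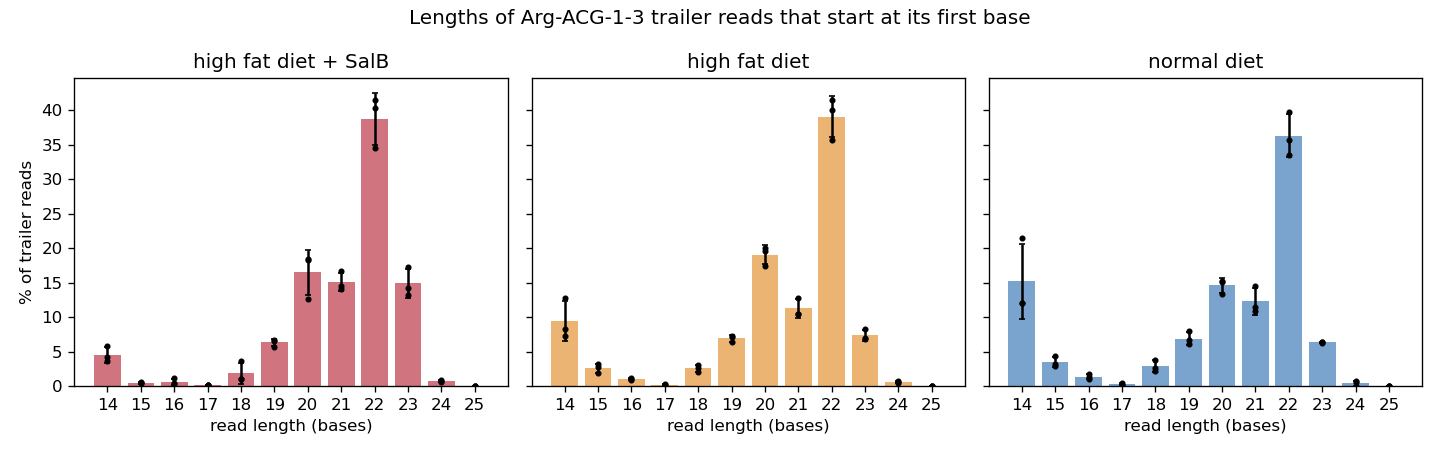
Length of copy 1-3 trailer reads that start at base 114, as a percent of such reads in each library. Bars are group means, points the 3 libraries and error bars the SD; the peak at 22 bases holds 38.8%, 39.1% and 36.3% with SalB, on high fat diet and on normal diet, while 23 bases hold 14.9%, 7.34% and 6.34% and 14 bases 4.53%, 9.45% and 15.2%.

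Grouped by length, the difference with SalB was largest for the longest trailers. Trailers of 23 to 25 bases averaged 17230 scaled CPM with SalB, 1950 on high fat diet and 1909 on normal diet, ratios of 8.84 and 9.02 for SalB over each. Those of 22 bases gave ratios of 4.47 and 4.28, and those of 20 to 21 bases 4.83 and 4.84. Those of 17 to 19 bases gave 3.97 and 3.46. In each of these 4 classes the SalB libraries lay above all others. Trailers of 14 to 16 bases averaged 6109 with SalB, 3183 on high fat diet and 5884 on normal diet, ratios of 1.92 and 1.04. Here SalB overlapped normal diet, where replicate 3 reached 9548 against 4416 and 3689 in replicates 1 and 2.

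**Figure D3:**
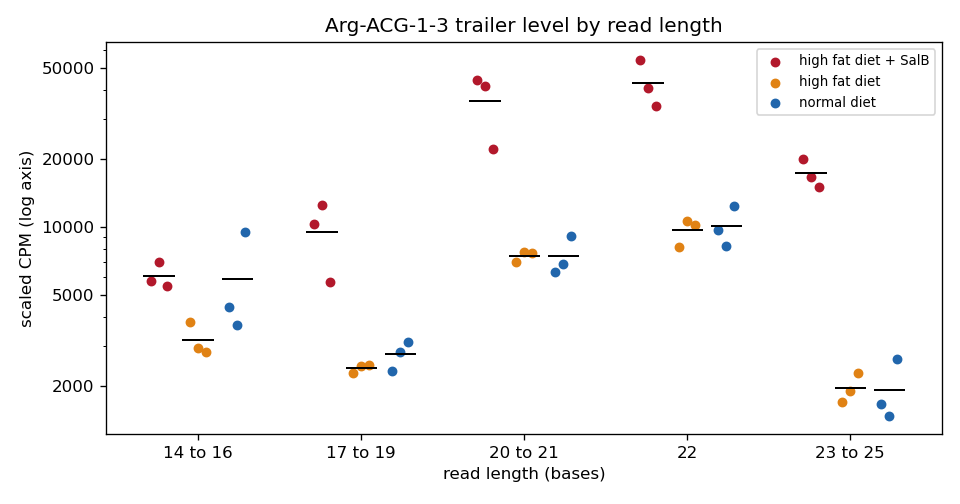
Level of copy 1-3 trailer reads by length class, in scaled CPM on a log axis. Points are libraries and bars group means of high fat diet with SalB, high fat diet and normal diet; the SalB libraries lie above the others in the 4 classes from 17 bases up, with mean ratios over high fat diet of 3.97 to 8.84, and overlap normal diet at 14 to 16 bases.

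As shares, 14 to 16 bases made up 4.30%, 5.92% and 6.67% of trailer reads with SalB, 16.6%, 11.4% and 11.0% on high fat diet and 18.1%, 16% and 26.0% on normal diet. All SalB libraries were below all others. The diets differed by -6.98 points (exact permutation p = 0.2, adjusted p over 19 shares 0.422), and by -3.99 points without normal diet replicate 3. Among reads of 18 bases or more, 23 bases or more made up 16.7% ± 2.51 with SalB, 9.10% ± 0.925 on high fat diet and 8.50% ± 1.03 on normal diet (SD, n = 3 each). The SalB libraries were the highest, at 14.9% to 19.5%, and the diets overlapped. Mean length was 20.98 ± 0.143 bases with SalB, 20.3 ± 0.264 on high fat diet and 19.8 ± 0.335 on normal diet. Restricted to reads of 18 bases or more it was 21.4, 21.2 and 21.2 bases, so most of the difference in mean length came with the shortest reads.

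Mismatches against the reference did not separate the diets. The last base of trailer reads mismatched in 14.6% ± 0.610 with SalB, 15.5% ± 1.65 on high fat diet and 13.95% ± 1.07 on normal diet (SD, n = 3 each), and the groups overlapped. Reads past base 133 carried A133T in 2.63% with SalB, 3.97% on high fat diet and 4.62% on normal diet. SalB overlapped high fat diet in this share and lay below normal diet.

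Mature Arg-ACG reads came almost only from the 3′ end. Of 4719 mature reads, 4057 were 3′ fragments that reached the last encoded base or the CCA tail, 654 were internal and 8 started at the 5′ end. Most could not be assigned to 1 reference: 3953 reads, 83.8%, fitted Arg-ACG-1-1 and Arg-ACG-3-1 equally. Arg-ACG-2-1 alone held 319 reads, Arg-ACG-3-1 alone 255 and Arg-ACG-1-1 alone 158. A further 33 fitted all 3 references.

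The 3′ fragments did not share the trailer's difference. They numbered 246, 535 and 158 reads with SalB, 531, 338 and 505 on high fat diet and 520, 383 and 841 on normal diet. In scaled CPM they were 4466, 9063 and 4046 with SalB, 7748, 9792 and 9186 on high fat diet, and 9771, 10785 and 7648 on normal diet. SalB replicates 1 and 3 lay below every other library, and replicate 2, the library that stands apart, lay among the others. Group means were 5858 ± 2783 with SalB, 8908 ± 1050 on high fat diet and 9401 ± 1601 on normal diet (SD, n = 3 each), and 4256 with SalB when replicate 2 was left out.

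As a share of all tRNA reads, 3′ fragments made up 0.395%, 0.342% and 0.394% with SalB, with 0.957%, 1.199% and 1.14% on high fat diet and 1.21%, 1.23% and 0.888% on normal diet. By this unscaled share SalB replicate 2 was as low as its group. However, the Leu-CAG-3-1 precursor held 41.8% of its reads, which lowers every other share in that library. The log2 difference in scaled level was -0.67 (SE 0.32) for SalB against high fat diet and -0.72 (SE 0.32) against normal diet, and -1.53 and -1.54 with total counts. Sums lower with no overlap made up 11.8% of all sums for SalB against high fat diet and 7.69% for SalB against normal diet. High fat diet against normal diet gave -0.05 (SE 0.30) with a limma-voom adjusted p of 0.945.

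The main 3′ fragments fall into 2 sets by their start, just behind A58 or in front of it, at base 55. They are shown with the added tail in capitals.
bases 59 to 76: ctcctggctggctcgCCA
bases 60 to 76: tcctggctggctcgCCA
bases 55 to 76: tcgactcctggctggctcgCCA
bases 55 to 75: tcgactcctggctggctcgCC
bases 55 to 73: tcgactcctggctggctcg
The fragment from base 59 had 23, 33 and 21 reads with SalB, 95, 55 and 74 on high fat diet and 75, 56 and 141 on normal diet. The fragment from base 60 had 27, 15 and 18 reads with SalB, 70, 60 and 78 on high fat diet and 71, 50 and 115 on normal diet. After scaling, all SalB libraries lay below all others for both, with log2 differences of -1.50 and -1.80 for SalB against high fat diet.

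For the fragments from base 55, SalB and high fat diet overlapped. The form that ends at 76 had 27, 64 and 20 reads with SalB, 55, 33 and 55 on high fat diet and 33, 57 and 69 on normal diet. Its log2 difference was -0.47 for SalB against high fat diet, and the groups overlapped. The form that ends at 75 had 12, 42 and 10 reads with SalB, 32, 14 and 17 on high fat diet and 54, 48 and 67 on normal diet. Its level was lower in all high fat diet than in all normal diet libraries, by a log2 difference of -1.22 with the smallest adjusted p of any Arg-ACG fragment in this comparison, 0.343 by limma-voom. The form that ends at 73, before the tail, had 22, 18 and 13 reads with SalB, 32, 19 and 16 on high fat diet and 43, 27 and 47 on normal diet. After scaling it was lower in all SalB than in all normal diet libraries, with a log2 difference of -0.84.

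The start sites of all 3′ reads differed with SalB as well. Starts at bases 59 to 61 made up 44.7%, 26.0% and 44.9% of 3′ reads with SalB. They made up 64.2%, 68.6% and 71.1% on high fat diet and 63.7%, 53.5% and 64.6% on normal diet. Each SalB library lay below each other library. The means were 38.5% ± 10.9 with SalB, 68.0% ± 3.48 on high fat diet and 60.6% ± 6.13 on normal diet (SD, n = 3 each), and 44.8% with SalB without replicate 2. Reads that still hold A58 made up 60.7%, 31.5% and 39.0% in these groups. The diets differed by 7.40 points in starts at 59 to 61 (exact permutation p = 0.2).

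SalB replicate 2 had a start of its own. In it 120 of 535 reads of mature 3′ fragments, 22.4%, began at base 54, against 2, 0, 1, 0, 0, 0, 0 and 0 reads in the other 8 libraries, at most 0.813%. Of these, 82 were the fragment ttcgactcctggctggctcgcca, which spans bases 54 to 76 and was singled out after its values were seen. Reads from base 56 were also most frequent in this library, with 45 reads, against 1 and 6 in SalB replicates 1 and 3 and at most 4 in any other.

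The CCA tail was complete in 2224 of 4057 3′ reads, 47.5% to 60.5% by library, and SalB overlapped normal diet in this share. Reads that end at base 76 made up 52.4% ± 3.40 with SalB, 59.7% ± 0.824 on high fat diet and 51.2% ± 3.26 on normal diet (SD, n = 3 each). All high fat diet libraries, at 58.8% to 60.5%, lay above all normal diet libraries, at 47.5% to 53.7%. The exact permutation p for that difference was 0.1, the smallest possible, and 0.422 after adjustment over 19 shares. Reads that end 1 base short, at 75, made up 31.4%, 31.7% and 37.8% in these groups, lower in every high fat diet than in every normal diet library (exact permutation p = 0.1). Tails that lack all of CCA, with an end at 73, made up 12.2% ± 5.92 with SalB, 7.23% ± 1.71 on high fat diet and 9.35% ± 1.42 on normal diet. SalB replicates 1 and 3, at 17.1% and 13.9%, lay above every other library, replicate 2 was at 5.61%, and the SalB mean without it was 15.5%.

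**Figure D4:**
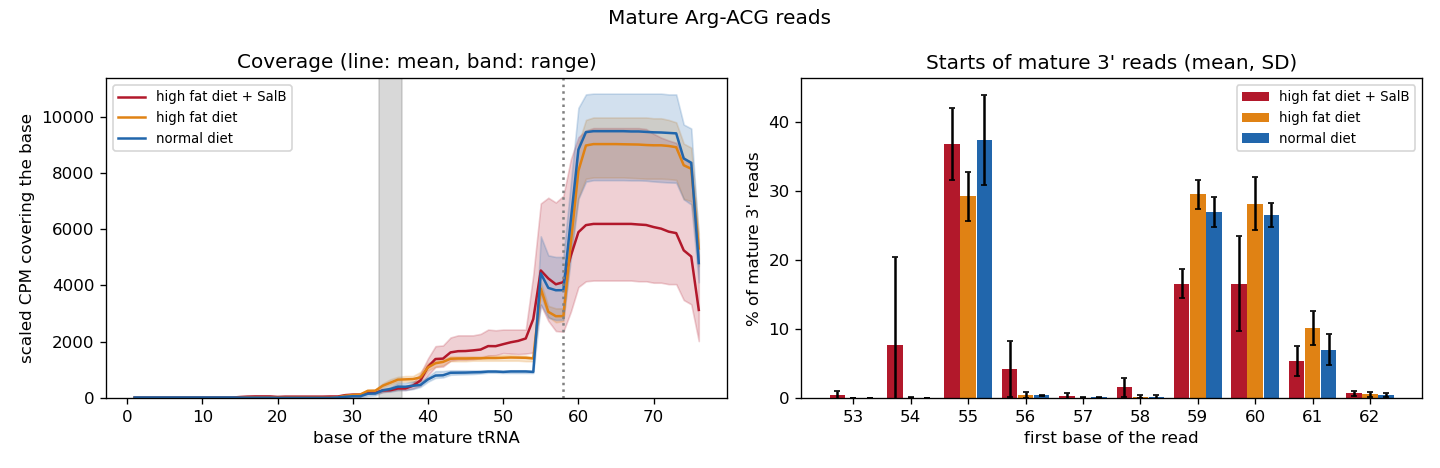
Left, coverage of each base of the mature Arg-ACG references in scaled CPM, as the group mean (line) and range (band), with the anticodon shaded and base 58 dotted. Right, percent of mature 3′ reads by first base, with bars for group means and error bars for SD (n = 3 each); bases 59 and 60 hold 16.6% and 16.6% with SalB, 29.5% and 28.2% on high fat diet and 26.99% and 26.6% on normal diet, and the SalB bar at base 54 comes from replicate 2.

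Internal reads were few and ended mostly near base 55. They numbered 66, 108 and 80 with SalB, 100, 46 and 71 on high fat diet and 47, 33 and 103 on normal diet, and 331 of 654, 50.6%, ended at base 55. In scaled CPM they were 1198, 1830 and 2048 with SalB, 1459, 1333 and 1291 on high fat diet, and 883, 929 and 937 on normal diet. At this scaling, all SalB and all high fat diet libraries lay above all normal diet libraries. High fat diet against normal diet gave a log2 difference of 0.57 (SE 0.27) with an unadjusted p of 0.0643 and a limma-voom adjusted p of 0.504. SalB against high fat diet gave 0.27 (SE 0.27), and -0.61 with total counts, so that its direction turned with the scaling. SalB against normal diet gave 0.84 (SE 0.27), and 0.020 with total counts, so that its size rested on the scaling. As shares of all tRNA reads, internal reads made up 0.106%, 0.0691% and 0.199% with SalB. They made up 0.109%, 0.106% and 0.109% on normal diet, and these 2 groups overlapped.

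The leading internal fragments show both the reference differences and the edited anticodon. Capitals mark bases that differ from the reference.
bases 40 to 55 of Arg-ACG-2-1: cagaagattgtaggtt
bases 41 to 55 of Arg-ACG-2-1: agaagattgtaggtt
bases 32 to 55 of Arg-ACG-3-1: ctGcggatcagaagattctaggtt
bases 34 to 55 of Arg-ACG-3-1: Gcggatcagaagattctaggtt
bases 43 to 56 of Arg-ACG-2-1: aagattgtaggttT
These fragments had 38, 32, 34, 29 and 17 reads over all libraries, too few to be tested. The third and the fourth carry A34G and the last carries C56T.

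Base 34 was read as G in nearly all mature reads that covered it. A34G stood in 157 of 162 such reads, 96.9% (exact 95% interval 92.9% to 99.0%, counting error only), and the other 5 had A. By group it stood in 36 of 40 reads with SalB, 66 of 67 on high fat diet and 55 of 55 on normal diet. Libraries held 11 to 32 such reads, so small differences between groups were not detectable at this depth. The mean share was 98.1% on high fat diet and 100% on normal diet, with an exact permutation p of 1.

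Other tRNAs with A34 that are edited in mammals had fewer or less uniform reads. Ile-AAT carried G in 168 of 323 reads, 52.0%, and Val-AAC in 24 of 34, 70.6%. Leu-AAG carried it in 8 of 10, Ser-AGA in 5 of 6 and Ala-AGC in 2 of 5. Pro-AGG carried it in 0 of 12 reads, with an upper 95% bound of 26.5% that covers counting error only, and Thr-AGT had 0 reads over the base. Which bases a read ends on decides whether base 34 is seen, so these shares describe fragments and not the tRNA pool. A read with G at base 34 also uses up the only mismatch allowed in alignment. Such a read may be lost, or may fit another family as well, while a read with A still has that mismatch to spare. This can lower the share of G, by an amount that was not tested. The count for Pro-AGG therefore does not show that its fragments were unedited.

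At A58, mismatches were rare. Of 1675 Arg-ACG 3′ reads that began ahead of A58, 19 mismatched, 10 with A58C, 7 with A58G and 2 with A58T. The mean share was 1.18% with SalB, 1.27% on high fat diet and 0.796% on normal diet, and the groups overlapped.

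Over single fragments, 37 Arg-ACG sequences had enough reads to be tested, 26 trailers and 11 mature 3′ fragments, and the others did not. For high fat diet against normal diet, 0 of 37 passed a limma-voom adjusted p of 0.05, as did 0% of all 733 fragments tested. At an unadjusted p under 0.05 there were 7 of 37, and 91 of 733 over all fragments. With no overlap between groups, 5 were higher on high fat diet, where 10.8% of all fragments were, and 7 were lower, where 13.1% of all were. The median log2 difference was -0.18 over the 37 and -0.02 over all fragments.

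Of the 26 trailers, 9 met the filter on low counts only with the help of SalB libraries, 2 of them reaching it in no other library, and so were kept through their level with SalB. Counts, medians and ranges over the 26 are thus partly set by the filter and support nothing by themselves. All 11 mature 3′ fragments met the filter without SalB libraries. The 26 trailers were all copy 1-3 reads from base 114 that differ in length or by a substituted base. They are forms of the same trailer and not separate members, so their share cannot be weighed against that of all fragments. The 11 mature 3′ fragments overlap one another too.

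For SalB against high fat diet, 22 of the 26 trailers were higher with no overlap and 0 lower, with a median log2 difference of 1.89 and a range of -0.12 to 4.51. Of the 11 mature 3′ fragments, 0 were higher and 6 lower, with a median of -1.15 and a range of -1.86 to -0.08. Over all 733 fragments, 26.5% were higher and 23.7% lower without overlap, with a median of -0.07. Leaving out SalB replicate 2 gave 23 trailers higher and 9 mature fragments lower, where 29.2% and 30.8% of all fragments were. Against normal diet, 19 trailers were higher and 7 mature fragments lower, where 24.8% and 24.6% of all fragments were, with medians of 1.98 and -1.36.

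Among the other arginine tRNAs (anticodons CCG, CCT, TCG and TCT), a list chosen with earlier results of these data known, 7 sums of 1 origin had enough reads. For high fat diet against normal diet, 0 of 7 passed limma-voom at an adjusted p of 0.05, where 0 of 169 sums did and 17 had an unadjusted p under 0.05. Their median log2 difference was 0.14, against -0.03 over all sums. For SalB against high fat diet 1 of 7 was higher without overlap, Arg-TCT internal fragments with a log2 difference of 1.03, and 0 were lower, where 34.9% and 11.8% of all sums were. The median was 0.05, against 0.55 over all sums. No sum of trailers from another arginine tRNA was among the 7. Arg-TCT could give none, because its trailer was not delimited from its intron.

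Other nuclear tRNA trailers with enough reads came from 9 families. Families with introns (Arg-TCT, Leu-CAA, Tyr-GTA and Ile-TAT) were not among those considered, because their trailers were not delimited. For SalB against high fat diet 7 of 9 were higher without overlap, where 34.9% of all 169 sums were, with a median log2 difference of 1.06, against 0.55 over all sums, and a range of 0.52 to 7.17. Against normal diet 5 of 9 were higher, where 32.5% of all sums were, with a median of 0.85, against 0.49 over all sums. Arg-ACG, at 2.16, was second to the Leu-CAG trailer, at 7.17 (SE 3.28), of which 65174 of 66941 reads lay in SalB replicate 2. The Cys-GCA trailer followed at 1.93, Ala-TGC at 1.40, Ala-CGC at 1.33, Thr-CGT at 1.06 and His-GTG at 0.85. Against normal diet Arg-ACG, at 1.95, lay behind Leu-CAG at 6.26 and Cys-GCA at 2.12. For high fat diet against normal diet 0 of 9 passed limma-voom, with a smallest adjusted p of 0.400 and a median log2 difference of 0.18.

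Arg-ACG held most nuclear trailer reads in 8 of the 9 libraries. Its share was 70.7%, 9.53% and 84.0% with SalB, 70.2%, 69.5% and 73.1% on high fat diet and 71.7%, 67.0% and 77.0% on normal diet. The exception was SalB replicate 2, where the Leu-CAG trailer had more reads. By mean scaled level it ranked second of 56 trailers with SalB, behind Leu-CAG, and first of 56 in the other groups.

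The sums whose level over the 9 libraries was most like that of the Arg-ACG trailer were ranked by Pearson's r of log2(scaled CPM + 10) over 166 other sums. They were internal fragments of Trp-CCA (r = 0.958), of Phe-GAA and Ser-GGA together (0.954) and of Ile-TAT (0.954), mitochondrial Val-TAC trailers (0.945) and mitochondrial His-GTG 3′ fragments (0.944). The 9 points fall into the SalB libraries and the rest, and both values of a point share its library and scaling. Trp-CCA internal fragments averaged 6804 scaled CPM with SalB, 743 on high fat diet and 788 on normal diet.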

How the data were processed

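Serum RNA was isolated with TRIzol, ligated to adapters with a commercial kit for tRNA fragments, copied, amplified, size-selected on a gel and read on an Illumina NextSeq, per the labels' protocols. The submitters' processing notes list FastQC, cutadapt, Bowtie and mm10 without versions or roles. The authors deposited 1 alignment list per library, with the read count of each collapsed sequence inside its name, and the column of positions holds the alignment offset. Reads had at most 1 mismatch.

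Each read was counted once. Mature reads were classed as 5′ (start at base 1), 3′ (reaching the last encoded base) or internal, and precursor reads as leader, body or trailer. In families with introns (Arg-TCT, Leu-CAA, Tyr-GTA and Ile-TAT) trailers were not delimited and entered no trailer sum. The members and lists were chosen with earlier results of these data known. Named fragments are the 5 most abundant of each origin. limma-voom (limma 3.58.1, R 4.3.3) was fitted once over 9 libraries, with trimmed-mean scaling computed from its definition and Benjamini-Hochberg adjustment at 0.05, on sequences with the equivalent of 10 reads at median depth (44415) in at least 3 libraries and 15 reads in all. It was tested on simulated data. Shares were compared by exact permutation. Intervals cover counting error only. Libraries of 1 group differed by more than sampling noise (chi-square per degree of freedom 2.30 to 31.0). Alternatives were other scalings, filters, read lengths, mismatch and sharing rules, log2 values with a pseudocount of 1, the replicate block and leaving out each library; leaving out SalB replicate 2 from counts and shares, and normal diet replicate 3 from the 14-base trailer, was chosen after seeing the data.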

Additional observations from a re-analysis of the deposited data

How the results depend on the processing

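No Arg-ACG fragment was called for high fat diet against normal diet by limma-voom or by limma on log2 values under any of 19 alternatives (0 each), the replicate block among them. The smallest adjusted p of an Arg-ACG fragment ran from 0.0929 with no filter to 0.672 with total counts, against 0.343 as reported. Over all fragments 23 were called with no filter, against 0 as reported. The labels give groups the same replicate numbers. Same-numbered high fat and normal diet libraries correlated at -0.02, 0.05 and 0.15, and differently numbered ones at -0.16 to 0.14. These are correlations of deviations from means of 3 libraries, so pairing by number was neither shown nor excluded. With total counts, the SalB differences against high fat and normal diet were 1.31 and 1.22 for trailers, -1.53 and -1.54 for mature 3′ fragments and -0.61 and 0.020 for internal fragments. With 16 to 40 bases only, internal fragments gave -0.17 and 0.51. The share of 14 to 16 bases then holds 16-base reads alone, so its difference between the diets had to shrink, to -0.51 points. With each distinct sequence counted once, the diets differed by -2.45 points in 14 to 16 bases, by 4.07 in complete CCA and by -0.027 in starts at 59 to 61. Leaving out each library in turn gave 1.99 to 2.45 and 1.70 to 2.25 for trailers with SalB, 0.12 to 0.48 and 0.69 to 1.10 for internal fragments, and -0.997 to -0.377 and -1.01 to -0.39 for mature 3′ fragments, lowest without SalB replicate 2 and nearest to 0 without SalB replicate 3. Between the diets it gave 3.87 (without normal diet replicate 2) to 9.39 points for starts at 59 to 61, -4.80 to 2.64 points for the trailer share between the diets and -2.78 to 0 points for G at base 34. The cause of the other shifts was not tested. Depth limits the mature reads most: 158 to 841 3′ reads and 11 to 32 reads over base 34 per library.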

Other observations

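A few reads crossed a mature end or lay ahead of it and entered no comparison. Precursor reads that overlapped the mature part numbered 9, 14 and 9 with SalB, 11, 6 and 5 on high fat diet and 6, 6 and 10 on normal diet. Leader reads numbered 2, 1 and 1 with SalB, and 0 in each of the other 6 libraries. The 5′ end of the mature tRNA was seen in 8 reads, 4 of them the fragment gggccagtggcgcaatgga of bases 1 to 19. Among the most frequent reads across a 3′ cut was actcctggctggctcgaccatgt of copy 3-2, with 4 reads.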
